A study of Homo sapiens with 4 samples.

Results

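The genes of sterol synthesis and cholesterol regulation were followed in KBM5 cells, a human chronic myeloid leukemia line that carries the BCR-ABL kinase. They are 29 genes of the 50868 in the deposited expression table, chosen by gene name, with earlier results of these data known. The set holds 8 genes of the mevalonate route, 12 of the route from squalene to cholesterol, 5 SREBP factors and regulators, and 4 genes of cholesterol traffic and storage. The 4 groups were untreated cells (CTR) and cells treated with DSF, with IM, or with both (IM-DSF), with 1 mRNA sequencing library per group. The labels do not spell out the drugs. IM is read here as imatinib, an inhibitor of BCR-ABL, and DSF as disulfiram, and the sources used here give no doses or times. By its title the study concerned joint targeting of GPX4 and BCR-ABL in leukemia stem cells, and all 4 libraries come from the same cell line.

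Cholesterol is built from acetyl-CoA in the endoplasmic reticulum. The mevalonate route makes the isoprenoid units that also feed protein prenylation, ubiquinone and dolichol, and the later enzymes join them to squalene, close the ring and trim it to cholesterol. The transcription factors SREBF1 and SREBF2 are held in the membrane with their escort SCAP by the INSIG proteins while sterol is plentiful. When sterol falls, SCAP carries them to the Golgi, where they are cut, and the released part enters the nucleus and switches on genes of the pathway, INSIG1 among them.

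All values below are FPKM as deposited, that is fragments scaled to gene length and library size. CTR is also called without drug and IM-DSF with both, and 4 values without labels follow the order CTR, DSF, IM, IM-DSF. FPKM is a per-length scale, so levels can be compared between genes. The libraries had denominators of about 14506000 fragments (CTR), 14704000 (DSF), 15810000 with IM and 12443000 with both, recovered from the step size of the values. Between 10677 and 11238 genes reached 1 FPKM, and the 29 sterol genes held 0.109% (IM) to 0.125% (CTR) of the summed FPKM. Myeloid identity was checked by marker genes: 10 of 11 myeloid markers exceeded 1 FPKM in every library, with KIT listed at 0 in all 4. No erythroid, megakaryocyte, T cell, B cell or stroma marker reached 1 FPKM. The summed FPKM of the 11 myeloid markers was 1640 without drug, 2182 with DSF, 2764 with IM and 2716 with both. In a bulk sample, fewer cells of a type and less RNA per cell cannot be told apart.

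With 1 library per group, a difference is between 2 libraries and has no replicate check and no p-value. Differences are of log2(FPKM + 1), a scale on which low genes show less than their true change. A fold is the ratio of 2 FPKM values, and its 95% interval (exact conditional binomial, from approximate fragment numbers) covers counting error and leaves out the spread between cultures. Nothing in the labels says that the libraries come from separate cultures, and PCR copies make the intervals too narrow. A gene was called higher or lower past a 2-fold rule (1 log2 unit) or past a 1.5-fold rule. Some genes are also described by both libraries with a drug lying above, or below, both without it. The share of all tested genes with such an order was not computed, so it only describes the 4 values of the gene. Calls were made on 11004 genes whose mean over the 4 libraries reached 1 FPKM, of which 27 are sterol genes. EBP, SREBF1, SREBF2, NPC1 and NPC2 overlap the span of another annotated gene on their strand, and CYP51A1, GGPS1, TM7SF2 and NPC2 share exon sequence with such a gene, so their values are less certain. The reductase TM7SF2 and the retention factor INSIG2 lay below that mean and are given by their values.

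The regulatory sequence upstream of these genes is shown first, since SREBP factors act there beside NF-Y and SP1. RefSeq start sites on GRCh38.p14 were found for 26 of the 29 genes, and the 250 bases before each start were searched on both strands. The motifs were TCACNCCA (a core of the sterol regulatory element), CCAAT (the NF-Y box), CACGTG (an E-box) and GGGCGG (the GC box of SP1). The first 3 sequences are the members with a TCACNCCA match. HMGCS1, SC5D and INSIG1 were added after their values were seen, because the expression results turn on them. Capitals mark TCACNCCA, CCAAT and CACGTG, or the reverse complement of each.
MVK, chr12:109573544-109573793, strand +: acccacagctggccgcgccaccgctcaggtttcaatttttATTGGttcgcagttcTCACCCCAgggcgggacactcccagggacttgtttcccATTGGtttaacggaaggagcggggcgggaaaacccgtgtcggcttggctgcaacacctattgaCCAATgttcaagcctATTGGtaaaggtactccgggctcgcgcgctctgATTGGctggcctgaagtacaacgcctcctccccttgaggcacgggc
MSMO1, chr4:165327419-165327668, strand +: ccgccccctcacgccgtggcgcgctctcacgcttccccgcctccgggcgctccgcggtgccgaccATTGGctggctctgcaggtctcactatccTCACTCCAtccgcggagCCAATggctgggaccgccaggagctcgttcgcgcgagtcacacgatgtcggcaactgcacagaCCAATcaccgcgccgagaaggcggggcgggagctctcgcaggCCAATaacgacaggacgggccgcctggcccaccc
SREBF2, chr22:41832855-41833104, strand +: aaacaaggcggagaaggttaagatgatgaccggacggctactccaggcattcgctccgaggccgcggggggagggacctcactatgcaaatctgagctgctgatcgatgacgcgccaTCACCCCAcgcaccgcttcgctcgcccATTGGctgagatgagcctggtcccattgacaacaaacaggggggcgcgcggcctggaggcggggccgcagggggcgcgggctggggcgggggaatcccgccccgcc
HMGCS1, chr5:43313413-43313662, strand -: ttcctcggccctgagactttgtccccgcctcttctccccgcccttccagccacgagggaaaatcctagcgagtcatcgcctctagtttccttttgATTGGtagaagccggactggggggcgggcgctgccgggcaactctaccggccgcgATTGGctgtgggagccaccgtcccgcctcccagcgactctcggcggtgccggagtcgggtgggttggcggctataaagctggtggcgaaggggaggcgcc
SC5D, chr11:121292521-121292770, strand +: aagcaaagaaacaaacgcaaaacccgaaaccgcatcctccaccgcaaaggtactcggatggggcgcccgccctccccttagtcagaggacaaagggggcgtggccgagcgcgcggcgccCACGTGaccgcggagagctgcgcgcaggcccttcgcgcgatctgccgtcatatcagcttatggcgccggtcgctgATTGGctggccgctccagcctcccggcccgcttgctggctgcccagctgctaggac
INSIG1, chr7:155297628-155297877, strand +: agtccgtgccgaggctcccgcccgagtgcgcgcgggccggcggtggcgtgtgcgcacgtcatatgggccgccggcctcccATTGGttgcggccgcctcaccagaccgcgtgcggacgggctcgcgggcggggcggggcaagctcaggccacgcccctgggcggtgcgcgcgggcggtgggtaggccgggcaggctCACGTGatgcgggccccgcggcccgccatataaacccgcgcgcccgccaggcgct

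The sterol element core was found in 3 of 26 genes (11.5%), namely MVK, MSMO1 and SREBF2, against 3.64% of the 7775 tested genes with a RefSeq promoter. The longer form TCACNCCAC was present only upstream of SREBF2, where it begins 133 bases before the start. It was held by 1.14% of the tested genes. CCAAT stood upstream of 19 of 26 genes (73.1%, against 42.0% of tested genes), and GGGCGG upstream of 24 (92.3%, against 75.6%). CACGTG was found for SC5D, SCAP and INSIG1 (11.5%, against 12.1%). Counted over all 35116 promoters of the table, non-coding genes included, the shares were 3.20% for TCACNCCA, 0.883% for TCACNCCAC, 32.01% for CCAAT, 42.6% for GGGCGG and 6.34% for CACGTG. A match describes the letters in this window and says nothing of binding.

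Few sterol genes crossed the size rules. In IM against CTR 1 of 27 passed the 2-fold rule, HMGCS1 (lower), where 2.43% of all tested genes passed it in either direction and 0.891% were lower. In IM-DSF the single gene past it was SC5D (higher) in each of 3 comparisons. The background was 2.37% against DSF (1.33% higher), 1.74% against IM (0.7% higher) and 4.28% against CTR (2.54% higher). In DSF against CTR 0 of 27 passed, where the background was 1.12%. For 27 genes, 1 call is a share near these backgrounds. Past the 1.5-fold rule lay 2 sterol genes in IM against CTR (background 10.3%), 2 in IM-DSF against DSF (10.1%), 0 in DSF against CTR (4.53%), 3 in IM-DSF against IM (5.94%) and 2 in IM-DSF against CTR (16.3%). The calls came from 4 genes: HMGCS1, SC5D, SREBF1 and NPC2.

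**Figure D1:**
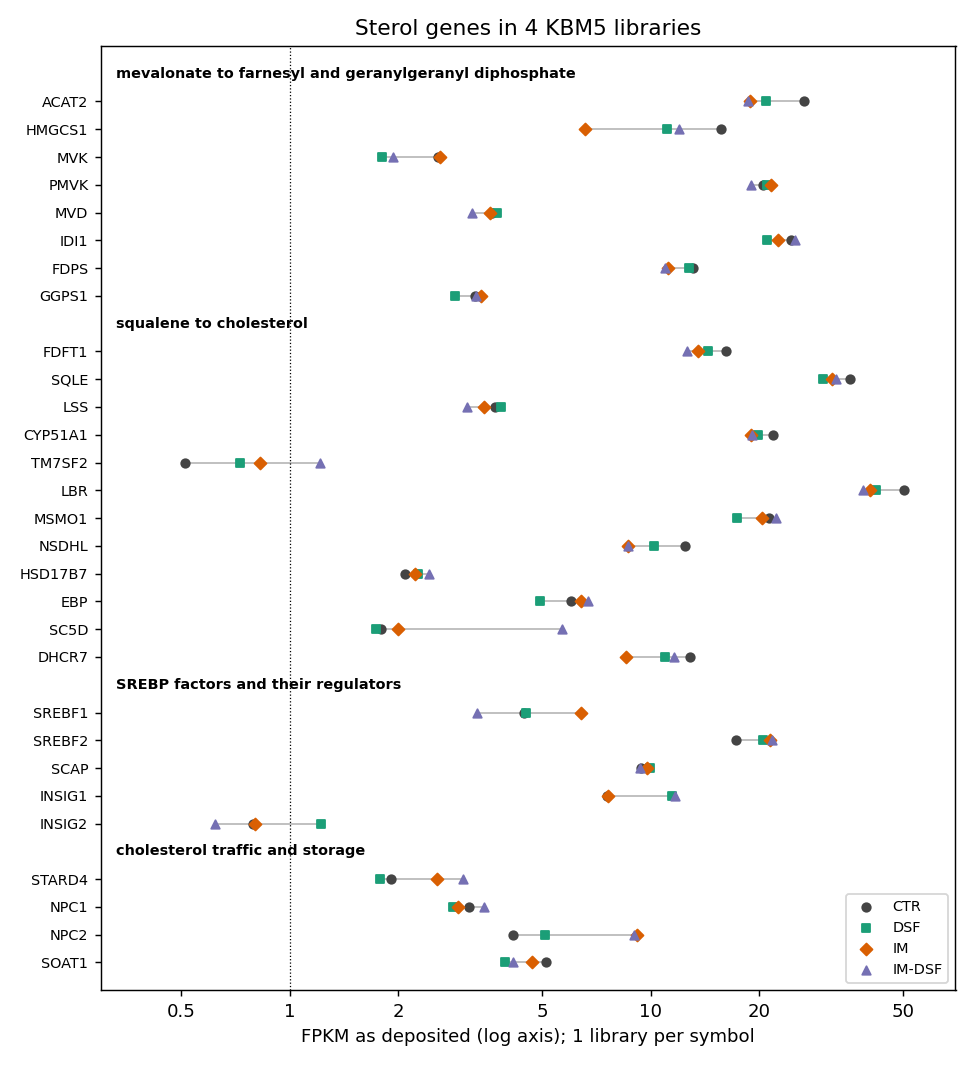
FPKM of the 29 sterol genes (x axis, log scale; 1 symbol per library, grey lines span the 4 libraries; the dotted line marks 1 FPKM). Most genes vary little over the libraries, while HMGCS1 (lowest in IM), SC5D (highest in IM-DSF) and NPC2 (high in IM and IM-DSF) span more than 2-fold; TM7SF2 also does, at low levels.

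The mevalonate route begins with the joining of acetyl-CoA units, and its second enzyme gave the largest sterol gene difference in IM. HMGCS1 (ENSG00000112972; GRCh38 chromosome 5, 43289395 to 43313512), the cytosolic synthase that makes HMG-CoA, had 15.7 FPKM without drug, 11.1 with DSF, 6.56 with IM and 12.0 with both. It was highest in CTR and lowest in IM, and IM-DSF lay close to DSF. The fold of IM over CTR was 0.418 (95% interval 0.375 to 0.466), a difference of -1.14 log2 units that ranked as number 70 from the lowest of all 11004 genes. With DSF present IM made little difference, at 1.08 times DSF (0.970 to 1.19). DSF went in opposite directions without and with IM: DSF over CTR was 0.708 (0.645 to 0.778) and IM-DSF over IM was 1.82 (1.62 to 2.05).

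The thiolase ACAT2, which makes the acetoacetyl-CoA that HMGCS1 uses, had 26.7, 20.9, 18.9 and 18.6 FPKM without drug, with DSF, with IM and with both. All treated libraries lay below CTR, down to 0.699 times in IM-DSF (0.646 to 0.756). Its exons overlap TCP1, a chaperonin subunit on the opposite strand, which had 40.4, 32.6, 31.1 and 23.8 FPKM in the same order. The sources used here do not say whether counting used strand, so reads of these genes cannot be told apart.

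The kinases and the decarboxylase that turn mevalonate into isopentenyl diphosphate came next. MVK, mevalonate kinase, had 2.57 FPKM without drug, 1.80 with DSF, 2.60 with IM and 1.94 with both. The libraries with DSF were lower than those without, at 0.702 times CTR (0.573 to 0.856) and 0.745 times IM (0.605 to 0.908). The exons of MVK overlap MMAB on the opposite strand, so its values are less certain. MMAB had 2.36, 2.67, 2.60 and 2.49 FPKM without drug, with DSF, with IM and with both. PMVK, phosphomevalonate kinase, stayed between 19.0 (IM-DSF) and 21.6 FPKM (IM). MVD, the decarboxylase, stayed between 3.21 (IM-DSF) and 3.75 (DSF). Neither differed from CTR beyond its counting interval in any treated library.

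IDI1, the isomerase that makes dimethylallyl diphosphate, had 24.6, 21.1, 22.5 and 25.1 FPKM without drug, with DSF, with IM and with both, lowest with DSF alone. FDPS, which makes farnesyl diphosphate, had 13.1, 12.8, 11.2 and 10.98 FPKM in that order, with both IM libraries below those without IM. GGPS1, which extends it to the geranylgeranyl diphosphate used in prenylation, ran from 2.86 FPKM (DSF) to 3.40 (IM). GGPS1 shares exon sequence with TBCE on the same strand and with ARID4B on the opposite strand, so its values are uncertain. ARID4B ran from 3.37 FPKM (CTR) to 6.47 (IM-DSF). The ratio of highest to lowest library was 1.19 for IDI1, 1.20 for FDPS and 1.19 for GGPS1.

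Among the 12 enzymes after farnesyl diphosphate, SC5D stood apart. SC5D (ENSG00000109929; chromosome 11, 121292453 to 121308694), the desaturase that makes 7-dehydrocholesterol, had 1.79 FPKM without drug, 1.73 with DSF, 1.996 with IM and 5.67 with both. The first 3 libraries lay together, and IM-DSF lay above all of them. IM-DSF was 3.17 times CTR (2.62 to 3.87), 3.27 times DSF (2.69 to 3.98) and 2.84 times IM (2.36 to 3.40). On the log2(FPKM + 1) scale these differences are 1.26, 1.29 and 1.15, which ranked as numbers 128, 43 and 50 from the highest of 11004 genes. Neither drug alone moved it past its counting interval, at 0.970 times CTR in DSF (0.766 to 1.24) and 1.12 times CTR in IM (0.895 to 1.41). No other annotated gene shares exon sequence with SC5D on either strand, and about 392 fragments stand behind the IM-DSF value.

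DHCR7, the reductase that acts directly on the product of SC5D, followed the order of HMGCS1 instead. It had 12.8 FPKM without drug, 10.98 with DSF, 8.56 with IM and 11.6 with both. IM over CTR was 0.667 (0.598 to 0.745), while IM-DSF over IM was 1.35 (1.20 to 1.52). The lowest library was IM, as for HMGCS1, but DHCR7 did not pass the 1.5-fold rule on the log2 scale (-0.53).

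The first enzymes committed to sterols were abundant and varied little. FDFT1, squalene synthase, had 16.1 FPKM without drug, 14.4 with DSF, 13.5 with IM and 12.6 with both. SQLE, the rate-controlling epoxidase, had 35.7, 30.1, 31.9 and 32.6 FPKM in that order. Both were highest in CTR, with ratios of highest to lowest library of 1.28 and 1.19. LSS, which closes the ring to lanosterol, was far lower, from 3.10 (IM-DSF) to 3.86 FPKM (DSF).

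Lanosterol is then demethylated. CYP51A1, the demethylase, had 21.9, 19.8, 19.0 and 19.2 FPKM without drug, with DSF, with IM and with both, and it overlaps other annotated genes on its strand. LBR, a sterol reductase that is also a lamin receptor of the nuclear envelope, was the most abundant sterol gene, at 50.3 FPKM without drug, 42.2 with DSF, 40.5 with IM and 38.7 with both. All treated libraries lay below CTR for each of the 2 genes, and for LBR the fold in IM-DSF was 0.770 (0.732 to 0.810).

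TM7SF2 carries out the same reduction as LBR and was at the other end of the scale. It had 0.514, 0.729, 0.826 and 1.21 FPKM without drug, with DSF, with IM and with both. IM-DSF was 2.36 times CTR (1.45 to 4.01), in the opposite direction to LBR. Only about 25 to 51 fragments stand behind each of these values, and VPS51 on the same strand shares exon sequence with it, at 2.52, 2.98, 3.03 and 3.31 FPKM.

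The C4 demethylation enzymes were not alike. NSDHL, the dehydrogenase, had 12.4 FPKM in CTR, 10.2 in DSF and 8.66 in both IM and IM-DSF, and IM was 0.696 times CTR (0.592 to 0.817). MSMO1, the oxidase, had 21.2, 17.4, 20.4 and 22.2 FPKM without drug, with DSF, with IM and with both, lowest in DSF. HSD17B7, the ketoreductase, differed past its interval in no comparison and lay between 2.09 (CTR) and 2.43 FPKM (IM-DSF). EBP, the isomerase that follows, had 6.003, 4.94, 6.43 and 6.71 FPKM without drug, with DSF, with IM and with both, also lowest in DSF.

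**Figure D2:**
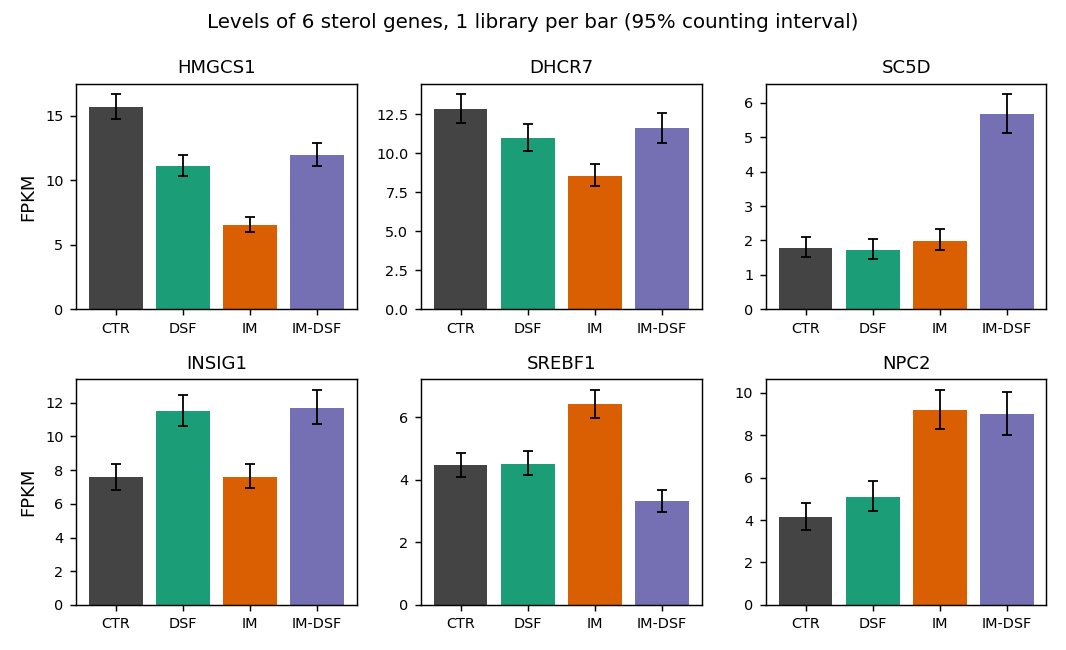
FPKM of 6 sterol genes (y axis from 0, linear; 1 library per bar) with 95% Poisson counting intervals, which leave out the spread between cultures. HMGCS1 and DHCR7 are lowest in IM, SC5D is high only in IM-DSF among these 4 libraries, INSIG1 is high in both libraries with DSF, SREBF1 is highest in IM and lowest in IM-DSF, and NPC2 is high in both libraries with IM.

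As a group, the enzymes lay slightly below CTR in every treated library. Of the 19 tested enzymes of the whole route, 15 were below CTR in DSF, where 0 passed either rule, with a median of -0.21 log2 units. In IM, 13 of 19 were below CTR (median -0.12), and in IM-DSF also 13 (median -0.14). Over all 11004 tested genes 5500, 5157 and 5267 lay below CTR in these comparisons, with medians of 0.00, 0.02 and 0.02. The 3 comparisons share the CTR library. The summed FPKM of the 20 enzymes was 295 without drug, 254 with DSF, 248 with IM and 259 with both. Between libraries that do not involve CTR the enzymes were balanced, with 10 of 19 above 0 in IM-DSF against DSF (median 0.07) and 9 of 19 in IM-DSF against IM (median -0.00).

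The SREBP regulators differed in their patterns over the libraries. All 4 tested ones lay above CTR in DSF (median 0.15) and in IM (median 0.17), with the smallest difference at 0.01 in each. Of all tested genes 50.01% lay above CTR in DSF and 53.1% in IM. The smallest differences, SREBF1 in DSF and INSIG1 in IM, fell below 0 when the values were rescaled to TPM. In IM-DSF 2 of the 4 lay above CTR and 2 below. SREBF2, which drives the sterol genes, had 17.3 FPKM without drug, 20.5 with DSF, 21.4 with IM and 21.7 with both, so CTR was the lowest library for this factor while being the highest for 9 of the 20 enzymes. Its fold in IM-DSF was 1.26 (1.18 to 1.34). Its upstream window is the only sterol gene window printed above with the longer sterol element. SCAP, the escort, was the steadiest sterol gene, between 9.34 (IM-DSF) and 9.99 FPKM (DSF).

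SREBF1 (ENSG00000072310; chromosome 17, 17810399 to 17837002), the factor more devoted to fatty acid genes, had 4.47 FPKM without drug, 4.51 with DSF, 6.41 with IM and 3.31 with both. IM was the highest library and IM-DSF the lowest. IM over CTR was 1.43 (1.28 to 1.60), while IM-DSF over IM was 0.516 (0.452 to 0.587), which passed the 1.5-fold rule at -0.78 log2 units and ranked as number 208 from the lowest. RAI1 on the opposite strand shares exon sequence with it. RAI1 had 3.22, 3.47, 3.27 and 3.04 FPKM without drug, with DSF, with IM and with both. Like SREBF1 it was lowest in IM-DSF, while its highest library was DSF and not IM. The part of RAI1 in the SREBF1 values was not tested.

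INSIG1 (ENSG00000186480, chromosome 7, 155297776 to 155310235), itself a target of the SREBP factors, was higher in the libraries with DSF. It had 7.58 FPKM without drug, 11.5 with DSF, 7.61 with IM and 11.7 with both. Both libraries with DSF lay above both without. The folds were 1.52 for DSF over CTR (1.34 to 1.73) and 1.54 for IM-DSF over IM (1.35 to 1.751), 2 comparisons that share no library, and IM made no difference past the interval (1.004, 0.875 to 1.15). On the log2(FPKM + 1) scale the DSF differences were 0.54 and 0.56, just short of the 1.5-fold rule, and ranked as numbers 319 and 284 from the highest of 11004. INSIG1 thus lay above CTR in the library where 15 of 19 enzymes lay below it. INSIG2, the second retention factor, was low, at 0.790, 1.22, 0.801 and 0.620 FPKM without drug, with DSF, with IM and with both, and was highest in DSF alone.

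In cholesterol traffic, the lysosomal carrier NPC2 was higher in the libraries with IM. NPC2 (ENSG00000119655; chromosome 14, 74476192 to 74494177), which takes cholesterol from the lysosomal lumen to NPC1, had 4.15 FPKM without drug, 5.09 with DSF, 9.18 with IM and 8.99 with both. Both libraries with IM lay above both without. IM was 2.21 times CTR (1.85 to 2.68) and IM-DSF was 1.76 times DSF (1.47 to 2.11), and both differences passed the 1.5-fold rule, at 0.98 and 0.71 log2 units. DSF added to IM left it at 0.979 times (0.840 to 1.14).

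In IM against CTR, where NPC2 was higher, 10 of 11 myeloid markers and all 6 monocyte markers were also higher, with KIT at 0. Of all tested genes 53.1% were higher there. In IM-DSF against DSF, where NPC2 was higher too, 7 myeloid markers were higher and 3 were lower. The 3 were PRTN3 (989 FPKM against 1016), SPI1 (52.7 against 62.4) and MPO (2.79 against 3.23), named after their values were seen. All 6 monocyte markers were higher in that comparison, against 51.7% of all tested genes. The summed FPKM of 6 monocyte markers was 7.78 without drug, 10.9 with DSF, 17.8 with IM and 19.999 with both. Of the 6, 2 reached 1 FPKM in CTR and 4 in each treated library, while CD163 (at most 0.0126 FPKM) and CD14 (at most 0.230) stayed near 0 in all 4. The part of these markers in the NPC2 result was not tested. The exons of NPC2 also overlap the microRNA gene MIR4709 on the same strand and ISCA2 on the opposite strand, and ISCA2 had 1.65, 1.99, 1.93 and 2.33 FPKM without drug, with DSF, with IM and with both.

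Its partner NPC1, the membrane protein that passes cholesterol out of the lysosome, varied less. NPC1 had 3.14, 2.83, 2.93 and 3.45 FPKM without drug, with DSF, with IM and with both, a ratio of highest to lowest of 1.22. RMC1 on the opposite strand shares exon sequence with NPC1, at 4.08, 3.72, 4.02 and 3.60 FPKM in the same order. STARD4, a carrier of cholesterol in the cytosol, had 1.90, 1.78, 2.57 and 3.01 FPKM in that order, and both libraries with IM lay above both without. Its folds were 1.35 for IM over CTR (1.10 to 1.66) and 1.69 for IM-DSF over DSF (1.36 to 2.10). SOAT1, which esterifies cholesterol for storage, had 5.12, 3.95, 4.69 and 4.15 FPKM without drug, with DSF, with IM and with both, with both libraries with DSF below both without.

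**Figure D3:**
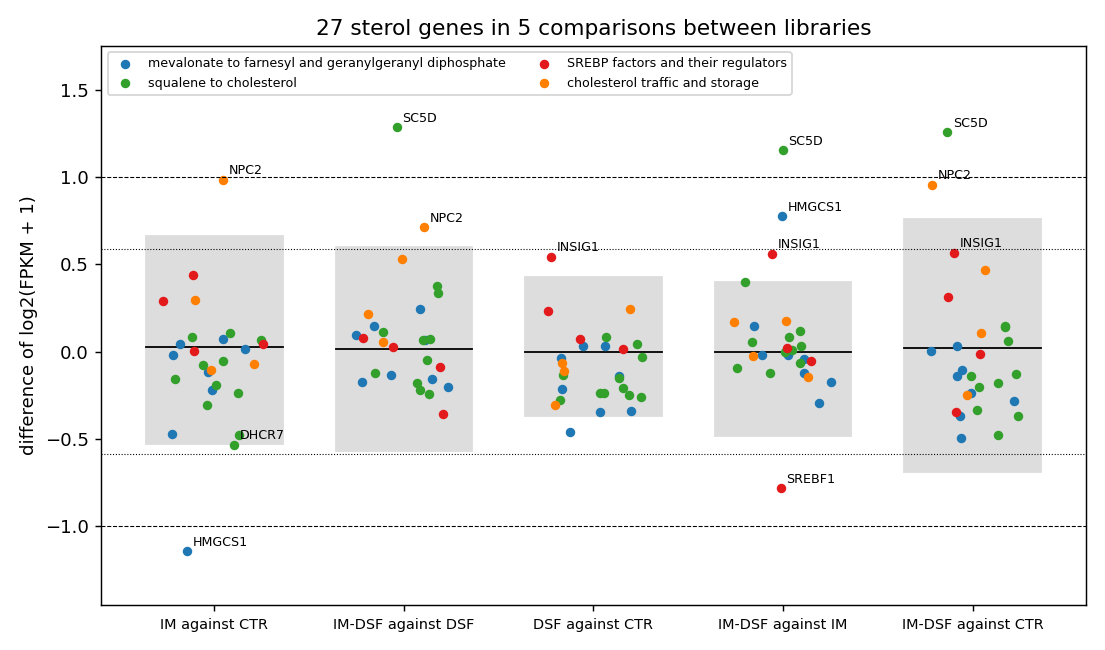
Differences of log2(FPKM + 1) of the 27 tested sterol genes in 5 comparisons (coloured points, 1 per gene, spread sideways at random). Grey boxes span the 5th to 95th percentile of all tested genes with their median as a line, and dashed and dotted lines mark the 2-fold and 1.5-fold rules; most sterol genes lie inside the boxes, with HMGCS1, DHCR7, SC5D, NPC2, SREBF1 and INSIG1 outside in at least 1 comparison.

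Whether the drugs combined additively was read from the departure of IM-DSF from the sum of both single-drug differences, on the log2(FPKM + 1) scale. This quantity uses all 4 libraries, so a shift of any of them moves every gene. HMGCS1 would have had 4.49 FPKM in IM-DSF under additivity and had 12.0, a departure of 1.24 that ranked as number 85 from the highest of 11004. SC5D would have had 1.94 FPKM and had 5.67, a departure of 1.18 (number 101). DHCR7 departed by 0.60 and SREBF1 by -0.79, the latter with 6.47 FPKM under additivity and 3.31 measured.

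Most enzymes lay above the additive level. Of 19 tested enzymes 16 had a positive departure (median 0.18), against a median of -0.01 over all tested genes, of which 5330 were positive. The departure equals the IM-DSF against IM difference minus the DSF against CTR difference, where the enzyme medians were -0.00 and -0.21. The same CTR library thus enters this count and the counts below CTR given earlier, so they are not separate results. Past the 2-fold rule were 2 of 27 sterol genes, HMGCS1 and SC5D, both positive (background 3.06% in either direction, 1.38% higher). Past the 1.5-fold rule were 4 of 27, with DHCR7 positive and SREBF1 negative (background 9.88%). Of the 4 tested SREBP regulators 3 were negative, including SREBF2 at -0.21. INSIG1 lay on the additive level, with 11.5 FPKM under additivity and 11.7 measured.

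**Figure D4:**
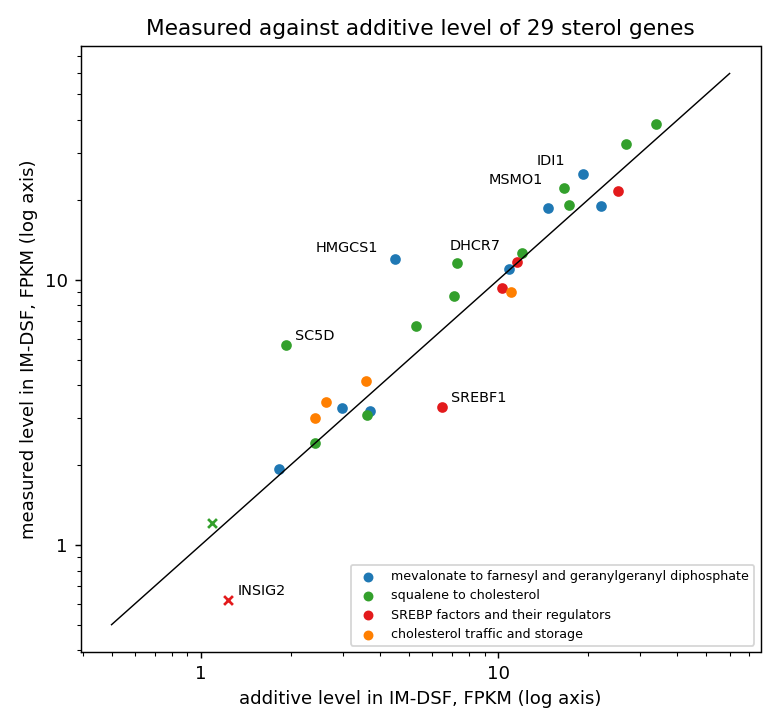
Measured IM-DSF level of the 29 sterol genes (y axis, FPKM, log scale) against the level under additivity of both drugs on the log2(FPKM + 1) scale (x axis, FPKM, log scale); the line marks equality and crosses mark the 2 genes below the mean filter. HMGCS1, SC5D and DHCR7 lie above the line and SREBF1 below it.

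Comparisons that share no library were set side by side. For IM, the differences without DSF and with DSF had the same sign in 17 of 27 sterol genes (63.0%), against 70.8% of all tested genes. Pearson's r across the 27 genes was 0.35 and Spearman's rho 0.36. For DSF, the differences without and with IM had the same sign in 11 of 27 (40.7%), against 55.2% of all tested genes, with r = 0.02 and rho = -0.03. Genes within a library share its depth and preparation and are not independent.

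Genes around the pathway were read from 5 lists of non-members. Of 10 measured genes of SREBP processing and sterol-regulated degradation, 0 passed either rule in any comparison. The backgrounds were 1.12% to 4.28% for the 2-fold rule and 4.53% to 16.3% for the 1.5-fold rule. MBTPS1, the first protease that cuts SREBP, had 7.01, 6.90, 7.11 and 5.62 FPKM, and overlaps another gene on its strand. RNF145, a ubiquitin ligase, had 2.59, 2.13, 2.63 and 1.78. Both were lowest in IM-DSF, as SREBF1 was.

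Of 13 measured genes on the list of fatty acid targets of SREBP, 11 lay below CTR in IM-DSF (median -0.25), against 47.9% of all tested genes. The single drugs gave the same direction. In IM, where SREBF1 was highest, 10 of the 13 lay below CTR (median -0.21), against 46.9% of all tested genes. In DSF 9 of the 13 did (median -0.12), against 49.98%. In IM-DSF against CTR 1 of the 13 passed the 1.5-fold rule, a share under the background of 16.3%. That gene was SCD, the desaturase that makes oleate, with 167 FPKM without drug, 136 with DSF, 139 with IM and 93.9 with both. It was lowest in IM-DSF, at 0.562 times CTR (0.545 to 0.579). ACSS2, which makes acetyl-CoA from acetate, went the other way, with 3.09, 3.49, 4.01 and 4.82 FPKM. TMEM97, a membrane protein that binds NPC1 and belongs to sterol rather than fatty acid metabolism, had 9.88 FPKM without drug, 4.40 with DSF, 6.38 with IM and 6.61 with both. It was the only 1 of the 13 past the 2-fold rule (DSF against CTR, -1.01), where the background was 1.12% in either direction.

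Of 15 genes that use isoprenoids, 1 passed the 2-fold rule, ICMT in IM against CTR (lower), where the background was 2.43% in either direction and 0.891% lower. ICMT, the methyltransferase that finishes prenylated proteins, had 19.2 FPKM without drug, 17.8 with DSF, 8.14 with IM and 13.8 with both. It was lowest in IM, like HMGCS1, at 0.424 times CTR (0.385 to 0.466), and was 1.70 times IM in IM-DSF (1.53 to 1.88). NUS1, a subunit of the dolichol synthase, had 37.0, 32.5, 30.1 and 28.2 FPKM without drug, with DSF, with IM and with both. PGGT1B, a subunit of the enzyme that attaches geranylgeranyl groups to proteins, had 3.14, 3.08, 3.97 and 4.48 FPKM in that order.

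Of the 13 LXR and oxysterol genes 5 were measured above the filter, and all 5 lay below IM in IM-DSF (median -0.26), against 50.3% of all tested genes. Against CTR the 5 were mixed in IM-DSF, with 2 above and 3 below (median -0.08). In IM 4 of the 5 lay above CTR (median 0.32), against 53.1% of all tested genes, and in DSF 3 did (median 0.07). ABCA1, the exporter of cholesterol, had 8.93, 7.46, 11.4 and 6.03 FPKM without drug, with DSF, with IM and with both. It was highest in IM and lowest in IM-DSF, and IM-DSF over IM was 0.531 (0.489 to 0.575), past the 1.5-fold rule. NR1H2, an oxysterol receptor, had 3.96, 5.34, 6.04 and 5.36 FPKM. LPCAT3, which remodels phospholipids, had 9.61, 9.11, 9.41 and 8.495.

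Of 16 measured genes of other cholesterol traffic, 13 lay above CTR in IM-DSF (median 0.19), against 52.1% of all tested genes. In that comparison 1 of the 16 passed the 2-fold rule, a share near the background of 4.28%. OSBPL1A, an oxysterol-binding protein of late endosomes, had 2.36 FPKM without drug, 3.34 with DSF, 5.40 with IM and 5.85 with both, but it overlaps another gene on its strand. LIPA, the lysosomal lipase that frees cholesterol from its esters, had 9.29, 11.1, 14.3 and 17.99 FPKM. OSBPL5, a related lipid carrier, had 3.10, 4.07, 3.91 and 4.79. For LIPA and OSBPL1A both libraries with IM lay above both without, as for NPC2.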

How the data were processed

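RNA from KBM5 cells was sequenced as a stranded mRNA library, 1 per group, per the labels' protocols. The authors deposited 1 table of FPKM values, with a column for each of the 4 libraries. Per the submitters' processing notes, HISAT2 2.0.4 and GRCh38.p14 were used, with the counter, annotation release, gene lengths and strand setting not given in the sources used here.

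FPKM times exon length in single-exon genes of GENCODE 29 gave whole numbers of 1 step per library (within 0.05) for 93.8% to 94.3% of such genes, which set the denominators. Among genes with several exons only 20.6% to 21.3% were whole, so fragment numbers are approximate and no count test was run. Intervals were computed with SciPy 1.17.1 on Python 3.11.15.

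The named genes are every member, the 3 genes per list of non-members furthest from CTR in IM-DSF, and any list gene past the 2-fold rule. Of these, 1 is not reported here. The members and lists were chosen with earlier results of these data known. Of the list genes, SPRING1 matched no symbol. Promoter sequences are from RefSeq (GRCh38.p14), matched by symbol; ACAT2, FDFT1 and SQLE had no entry. The alternatives tried changed the pseudocount to 0.1, dropped the filter, raised it to a mean of 5 FPKM, rescaled to TPM, used median-of-ratios or trimmed-mean factors, or kept protein-coding genes free of same-strand overlap. Members summed with their pseudogenes were added after seeing the data. The planned comparison of protein sequences was not made.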

Additional observations from a re-analysis of the deposited data

Results flagged for a closer look

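For 4 sterol enzymes and SREBF1, the difference made by a drug alone and in the presence of the other drug had opposite signs, with both counting intervals clear of a fold of 1. With 1 library per group the contrast between these differences was not tested. The share of all tested genes that meet the same rule was not computed, so the number of flagged genes has no background. The value given is the departure from additivity on the log2(FPKM + 1) scale.

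For DSF, HMGCS1 was at 0.708 times CTR without IM and 1.82 times IM with it, a departure of 1.24. DHCR7 was at 0.855 and 1.35 times, a departure of 0.60, and IDI1 at 0.857 and 1.11 times, a departure of 0.36. For IM, IDI1 was at 0.918 times CTR without DSF and 1.19 times DSF with it, the same departure of 0.36. SQLE was at 0.894 and 1.09 times, a departure of 0.27. SREBF1 went the other way, at 1.43 and 0.733 times, a departure of -0.79. All but SREBF1 were lowest with 1 drug alone and higher with both. The departures of IDI1 and SQLE lay within the 5th to 95th percentile of all tested genes (-0.62 to 0.53).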

How the results depend on the processing

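With 1 library per group none could be left out. No paired analysis was possible because each group has 1 library. Of 995 values of single members under the alternatives, 990 moved by less than their counting interval, 5 moved further and 0 of the called ones changed sign. The HMGCS1 and SC5D calls past the 2-fold rule held under every alternative that kept the gene. With a pseudocount of 0.1, members past the 2-fold rule were 2 in IM against CTR (background 5.45%) and 2 in IM-DSF against CTR (8.12%). Past the 1.5-fold rule were 1 in DSF against CTR (INSIG1, background 8.47%) and 4 in IM-DSF against CTR (24.7%). Rescaled to TPM, 2 passed the 2-fold rule in IM against CTR (background 4.32%) and 2 did in IM-DSF against CTR (7.08%). On that scale 4 passed the 1.5-fold rule in IM-DSF against CTR (22.9%). NPC2 is the gene that joins past the 2-fold rule in these settings. With a mean of at least 5 FPKM only 17 members are tested and SC5D and SREBF1 are not among them. In IM-DSF against each of DSF, IM and CTR 0 passed the 2-fold rule (backgrounds 2.15%, 1.57% and 4.01%). In each of these 1 passed the 1.5-fold rule (backgrounds 9.71%, 5.16% and 16.5%). Without genes that overlap on the same strand 20 members are tested, NPC2 and SREBF1 not among them. Of these, 1 passed the 1.5-fold rule in IM against CTR (background 8.32%) and 1 in IM-DSF against DSF (8.04%). In IM-DSF against CTR 1 passed it (13.96%), and in IM-DSF against IM 2 did (3.59%). No scaling moved the median of all genes by more than 0.1 log2 units. Depth limits the genes under 2 FPKM most: TM7SF2 and INSIG2 rest on 25 to 71 fragments.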

Other observations

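Pseudogene copies of the sterol genes were low except for those of CYP51A1 and HSD17B7. HSD17B7P2 had 0.787 FPKM without drug, 1.59 with DSF, 1.48 with IM and 2.27 with both, so in IM-DSF it lay close to HSD17B7 itself at 2.43 FPKM. CYP51A1P2 had 3.04, 2.90, 3.46 and 3.81 FPKM in the same order and CYP51A1P1 had 2.10, 1.62, 2.73 and 2.45, against 19.0 to 21.9 FPKM for CYP51A1. How reads were divided between these near-identical copies is not stated in the labels. No pseudogene of IDI1 or FDPS exceeded 0.25 FPKM in any library.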
